A study of Mus musculus with 18 samples.

Results

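The adult globin genes Hba-a1, Hba-a2, Hbb-bs and Hbb-bt and the heme synthesis gene Alas2 were followed by symbol in RNA sequencing of mouse inguinal white fat, 5 genes of 21899 in the tables. They were chosen by the differences in their levels between LLC and PBS libraries of this series, so those differences are given as descriptions and not as tests. The fat came from male C57BL/6J mice that had received LLC cells under the skin or phosphate-buffered saline (PBS) in their place; LLC is Lewis lung carcinoma, a mouse lung tumour line that grows in this strain and causes wasting. Tissue was taken at day 21, which the study calls cachexia, or at day 7, called pre-cachexia. There were 5 LLC and 4 PBS libraries at each day, 18 in all. No group carried a genetic change, and the sources used here do not give the age of the mice or whether the pads were cleared of blood. They also do not say whether each library came from a separate mouse. Below, n counts libraries, and SD, SE and p-values describe variation among libraries.

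Hemoglobin is built from alpha and beta chains, each holding a heme, and in the C57BL/6J strain the adult chains come from a pair of alpha genes (Hba-a1, Hba-a2) and a pair of beta genes (Hbb-bs, Hbb-bt). Alas2 encodes the erythroid aminolevulinate synthase, which begins heme synthesis in red cell precursors, while Alas1 does so in most other cells. Young red cells in the blood, the reticulocytes, have lost their nucleus but still carry globin mRNA.

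The promoters are shown because all 5 genes varied together over the libraries. Each line holds the 250 bases before the RefSeq start in GRCm38.p6, read 5′ to 3′ on the gene's strand. Capitals mark 4 motifs, searched on both strands, with overlapping or adjoining matches run together. The core bound by GATA factors was searched as GATAA. The box named for its letters and bound by NF-Y was searched as CCAAT. The box bound by Klf factors was searched as CACCC. The TATA box, at which transcription starts are set, was searched as TATAA. The windows are chr11:32283422-32283671 for Hba-a1 (plus strand), chr7:103827929-103828178 for Hbb-bs (minus strand), chr7:103813924-103814173 for Hbb-bt (minus strand) and chrX:150547167-150547416 for Alas2 (plus strand).
Hba-a1: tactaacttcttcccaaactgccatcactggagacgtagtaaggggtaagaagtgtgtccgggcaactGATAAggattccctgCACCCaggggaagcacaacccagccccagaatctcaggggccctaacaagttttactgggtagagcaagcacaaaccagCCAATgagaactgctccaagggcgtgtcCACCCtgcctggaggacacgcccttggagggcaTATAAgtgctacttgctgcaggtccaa
Hbb-bs: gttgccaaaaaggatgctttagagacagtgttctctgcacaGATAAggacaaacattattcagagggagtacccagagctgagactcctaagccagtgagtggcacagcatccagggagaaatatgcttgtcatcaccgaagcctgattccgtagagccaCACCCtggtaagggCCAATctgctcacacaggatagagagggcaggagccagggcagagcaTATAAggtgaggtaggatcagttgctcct
Hbb-bt: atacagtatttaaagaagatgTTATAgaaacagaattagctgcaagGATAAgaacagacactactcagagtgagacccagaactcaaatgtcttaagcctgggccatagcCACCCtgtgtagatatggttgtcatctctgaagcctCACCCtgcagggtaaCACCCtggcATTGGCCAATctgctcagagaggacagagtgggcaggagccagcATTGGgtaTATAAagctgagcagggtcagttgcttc
Alas2: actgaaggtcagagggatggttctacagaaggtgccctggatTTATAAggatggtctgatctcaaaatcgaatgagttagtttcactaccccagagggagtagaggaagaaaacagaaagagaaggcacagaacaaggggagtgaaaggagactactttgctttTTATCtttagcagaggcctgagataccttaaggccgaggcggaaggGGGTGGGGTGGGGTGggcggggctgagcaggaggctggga
The Hba-a2 window (chr11:32296242-32296491, plus strand) shared a run of 247 of its 250 bases with that of Hba-a1 and is not printed. The longest run shared by the windows of Hbb-bs and Hbb-bt was 14 bases. All 5 windows held the GATA core, the Klf box and the TATA letters on at least 1 strand, and the NF-Y box was in the 4 globin windows but not in that of Alas2. In the globin windows the TATA letters lay 27 bases before the start in Hba-a1, 30 in Hba-a2, 29 in Hbb-bs and 28 in Hbb-bt, counted to their outer base on the gene's strand, whereas in Alas2 they lay 207 bases before the start. Among 32851 RefSeq promoter windows of the same length, the GATA core was in 22.6%, the NF-Y box in 33.8%, the Klf box in 52.0% and the TATA letters in 22.8%, on either strand. A match describes these letters only, and binding was not measured. In the GENCODE annotation the start of each of the 5 genes lies inside its window.

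The transcripts of each pair share most of their 50-base windows. The coding sequences of Hba-a1 and Hba-a2 were both 426 bases long and differed at 1 base, and of the 50-base windows of their transcripts 67.5% of Hba-a1 and 86.9% of Hba-a2 were found in the other gene. Hbb-bs and Hbb-bt also differed at 1 of 441 coding bases, with 65.8% of Hbb-bs windows and 58.3% of Hbb-bt windows shared. The split of reads inside a pair is therefore an estimate by the counting program, and the sum of each pair is the firmer value. Levels are given as CPM, counts scaled to library size with edgeR's TMM factors, for comparing libraries, and as TPM, which also allows for transcript length, for comparing genes.

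Total counts were 14566155 to 18969387 per library. Adipoq, the fat cell hormone adiponectin, a defining marker of the labelled tissue, was at 1205 to 3229 CPM in the day 21 LLC libraries, 2328 to 2784 CPM in the day 21 PBS libraries, 1742 to 2198 CPM in the day 7 LLC libraries and 1895 to 2204 CPM in the day 7 PBS libraries. Skeletal muscle markers summed to 2.80 to 7105 CPM over the 18 libraries. At day 21, PBS library 4 stood apart, with macrophage markers at 2574 CPM against 256 to 416 CPM in the other 3 PBS libraries, and LLC library 1 had the highest macrophage sum at 3518 CPM and the lowest adipocyte sum at 19756 CPM. The day 21 values of the 5 genes, Hmox1 and Cd163 are given with and without these libraries. In bulk tissue, more cells of a type and more RNA per cell cannot be told apart.

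All 5 genes were higher in every LLC library than in every PBS library, at day 21 and at day 7. The day 21 differences were between 5.34-fold (Hba-a1) and 6.88-fold (Alas2), and the day 7 differences between 1.87-fold (Hba-a1) and 2.26-fold (Alas2). Over the 18 libraries the lowest value of each gene was in day 21 PBS library 4 and the highest in day 21 LLC library 2, 11.6-fold apart for Hba-a1 and 16.1-fold for Alas2. Together the 4 globins took 0.145% to 0.425% of all counts in day 21 LLC libraries, against 0.0339% to 0.0758% in day 21 PBS libraries. At day 7 they took 0.124% to 0.302% in LLC libraries, against 0.0805% to 0.103% in PBS libraries.

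**Figure D1:**
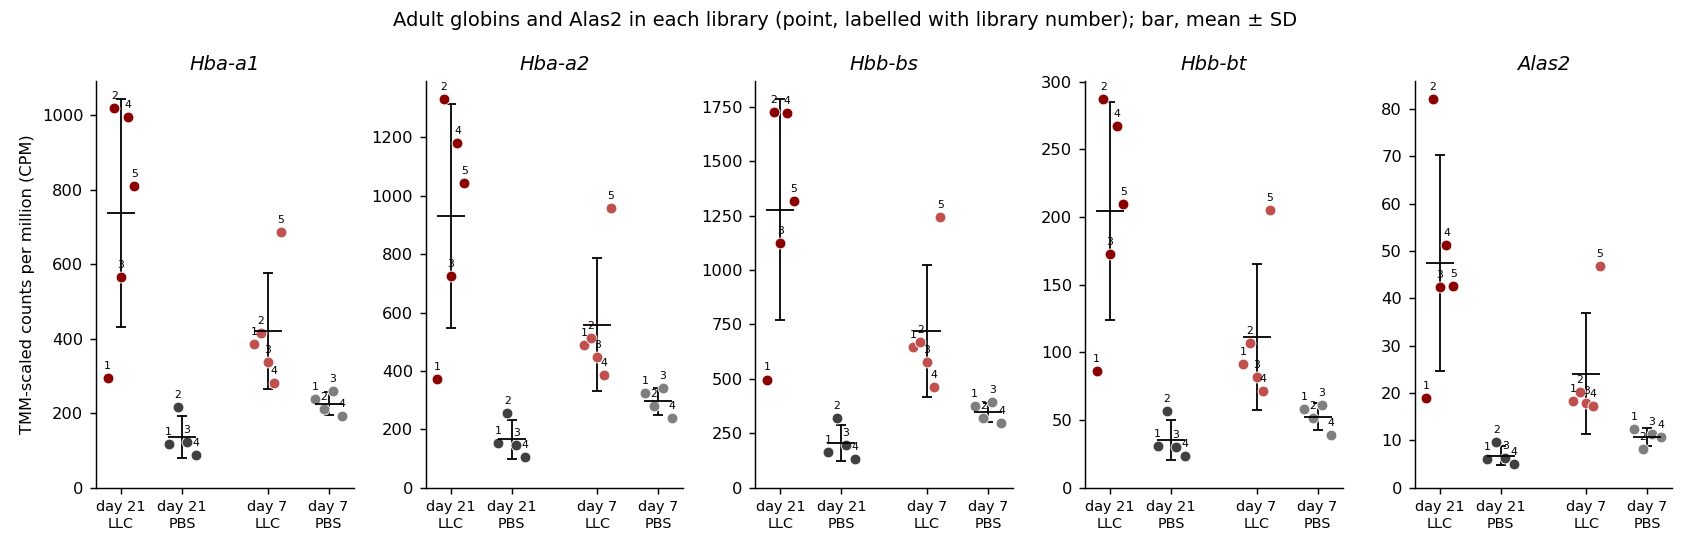
TMM-scaled CPM of Hba-a1, Hba-a2, Hbb-bs, Hbb-bt and Alas2 in each of the 18 libraries (points, numbered by library), with the mean ± SD of each group of 4 or 5. Every LLC point lies above every PBS point of its day, day 21 LLC libraries 2 and 4 and day 7 LLC library 5 are high, and day 21 LLC library 1 is low among its group.

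Hba-a1 encodes adult alpha globin. At day 21 it was at 296, 1019, 565, 994 and 810 CPM in LLC libraries 1 to 5, against 118, 216, 122 and 87.6 CPM in PBS libraries 1 to 4. At day 7 it was at 385, 414, 338, 282 and 685 CPM in LLC libraries and 237, 212, 261 and 192 CPM in PBS libraries. The groups did not overlap on either day. The day 21 LLC libraries had the largest SD (306 CPM). As a share of the mean, the SD was alike in the day 21 LLC (41.6%) and day 21 PBS libraries (40.9%). The log2 difference, LLC minus PBS, was 2.42 ± 0.41 (SE) at day 21 and 0.90 ± 0.23 at day 7.

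Hba-a2, the other adult alpha gene, had the same order of libraries within each group, apart from day 21 PBS libraries 1 and 3, which changed places. Its levels at day 21 were 372, 1332, 724, 1180 and 1044 CPM in LLC libraries, against 154, 258, 145 and 104 CPM in PBS libraries. At day 7 they were 487, 514, 447, 388 and 957 CPM in LLC libraries, against 326, 280, 342 and 240 CPM in PBS libraries. Groups did not overlap, and LLC library 5 was far above its group at day 7. The log2 difference was 2.47 ± 0.41 at day 21 and 0.92 ± 0.24 at day 7. For the sum of the alpha pair, group means were 1667 ± 689 CPM in LLC and 301 ± 121 CPM in PBS mice at day 21 (SD, n = 5 and 4), and 979 ± 383 CPM in LLC and 522 ± 76.1 CPM in PBS mice at day 7. The sum's log2 difference was 2.45 ± 0.41 at day 21 and 0.91 ± 0.24 at day 7.

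Hbb-bs, the adult beta gene with most of the beta counts, was the most abundant of the 5. It was at 497, 1726, 1122, 1722 and 1318 CPM in day 21 LLC libraries, against 164, 322, 198 and 133 CPM in day 21 PBS libraries. It was at 648, 669, 578, 463 and 1243 CPM in day 7 LLC libraries, against 376, 319, 392 and 296 CPM in day 7 PBS libraries. Groups did not overlap on either day. The log2 difference was 2.62 ± 0.41 at day 21 and 1.06 ± 0.25 at day 7. By mean TPM, Hbb-bs ranked 25th of all genes in day 21 LLC fat and 157th in day 21 PBS fat, and 36th in day 7 LLC fat and 85th in day 7 PBS fat.

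Hbb-bt, the lesser beta gene, followed Hbb-bs. Its CPM at day 21 were 86.1, 287, 173, 268 and 209 in LLC libraries, against 30.9, 56.7, 29.8 and 23.5 in PBS libraries. At day 7 they were 91.2, 107, 81.9, 71.1 and 205 in LLC libraries, against 58.3, 51.2, 61.4 and 38.7 in PBS libraries. Groups did not overlap. The log2 difference was 2.51 ± 0.39 at day 21 and 1.09 ± 0.29 at day 7. The beta pair summed to 1481 ± 588 CPM in LLC and 240 ± 97.1 CPM in PBS mice at day 21, and to 831 ± 357 CPM in LLC and 398 ± 55.2 CPM in PBS mice at day 7, with log2 differences of 2.61 ± 0.41 and 1.07 ± 0.26.

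Alas2 was rarer than any globin but differed most. At day 21 it was at 18.9, 82.1, 42.5, 51.4 and 42.5 CPM in LLC libraries, against 6.14, 9.57, 6.32 and 5.10 CPM in PBS libraries. At day 7 it was at 18.4, 20.2, 17.9, 17.2 and 46.8 CPM in LLC libraries, against 12.4, 8.13, 11.4 and 10.8 CPM in PBS libraries. The groups did not overlap, and 1 LLC library at each day (library 2 at day 21, library 5 at day 7) was well above the others. The log2 difference was 2.78 ± 0.39 at day 21 and 1.17 ± 0.30 at day 7. Alas2 averaged 42.6 ± 19.1 TPM in day 21 LLC fat and 5.71 ± 1.28 TPM in day 21 PBS fat, where Hbb-bs averaged 3615 ± 1111 TPM and 544 ± 193 TPM in the same groups.

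**Figure D2:**
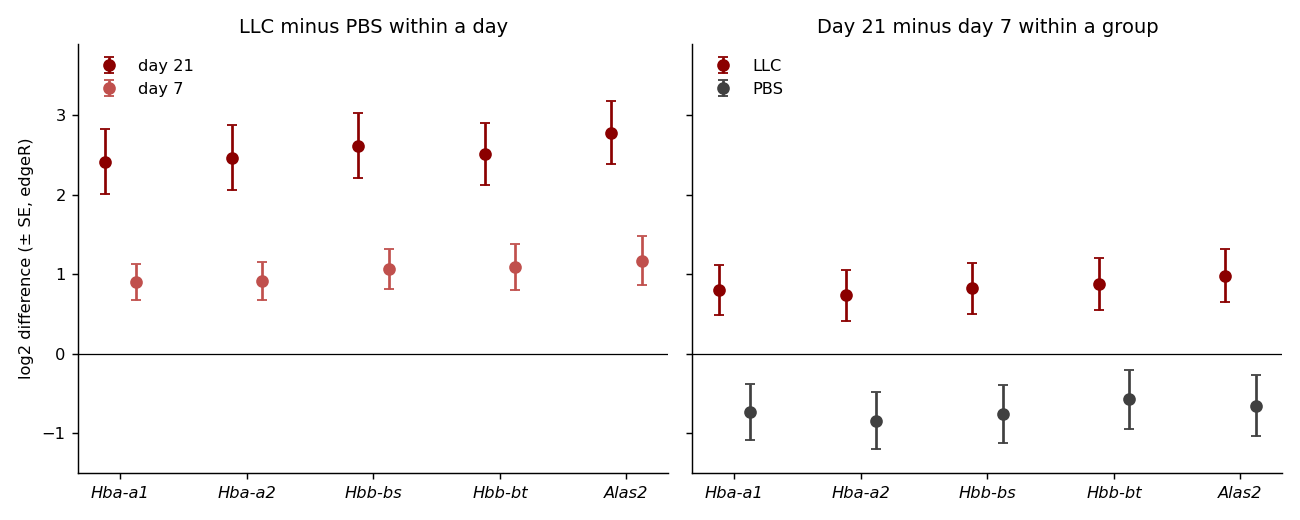
Fitted log2 differences ± SE (edgeR) of the 5 genes: left, LLC minus PBS at day 21 and at day 7; right, day 21 minus day 7 within LLC and within PBS mice. All LLC minus PBS values are above 0, and the day 21 points (2.42 to 2.78) lie above the day 7 points (0.90 to 1.17).

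With edgeR's quasi-likelihood test and Benjamini-Hochberg adjustment over all genes, 1 of the 5 genes, Alas2, passed at day 21, where 12 of 13564 genes (0.0885%) passed. At day 7 none of the 5 passed in edgeR, and 1 of 13445 genes (0.00744%) passed. All 5 had an unadjusted p under 0.05 at both days, as did 23.3% of all genes at day 21 and 8.51% at day 7. The groups did not overlap, with LLC higher, for 5 of 5 at day 21, against 5.23% of all genes tested, and for 5 of 5 at day 7, against 1.18%. Since these genes were picked for their differences, nothing is read from these counts. The counts of passing genes depended on the method and the libraries: DESeq2 called all 5 at both days, where it called 11.6% of genes at day 21 and 0.752% at day 7. In edgeR, 1 fit of all 18 libraries called all 5 at day 21, where it called 19% of genes, and so did the day 21 fit without PBS library 4 (1277 genes called in all) and that without LLC library 1 (24 genes). The edgeR call of Alas2 was lost, and 0 of the 5 passed, without any 1 of LLC libraries 3, 4 and 5 and PBS libraries 1, 2 and 3, with DESeq2's size factors, when genes under 1 CPM on average were left out, and with the replicate number as a block. The median log2 difference of the 5 genes was 2.51 at day 21 and 1.06 at day 7, while the median of all genes tested was 0.017 at day 21 and 0.0045 at day 7. Without day 7 LLC library 5, the day 7 differences were 0.66 for Hba-a1, 0.63 for Hba-a2, 0.77 for Hbb-bs, 0.75 for Hbb-bt and 0.79 for Alas2. Without day 21 PBS library 4, the day 21 differences were 2.26 for Hba-a1, 2.30 for Hba-a2, 2.46 for Hbb-bs, 2.36 for Hbb-bt and 2.67 for Alas2, and without day 21 LLC library 1 they were 2.66, 2.72, 2.87, 2.75 and 3.03 in the same order.

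The difference between LLC and PBS was larger at day 21 than at day 7 for every gene, by 1.54 ± 0.47 (SE) log2 units for Hba-a1, 1.58 ± 0.48 for Hba-a2, 1.58 ± 0.48 for Hbb-bs, 1.45 ± 0.50 for Hbb-bt and 1.63 ± 0.51 for Alas2. In this edgeR fit of all 18 libraries 58 of 13975 genes (0.415%) passed the test and none of the 5 did, while all 5 were under 0.05 before adjustment, as were 18.2% of all genes; DESeq2 passed 4 of them, and 5.25% of genes. The fitted difference between the days had opposite signs in the groups. Day 21 minus day 7 within LLC mice was 0.81 ± 0.31 for Hba-a1, 0.74 ± 0.32 for Hba-a2, 0.83 ± 0.32 for Hbb-bs, 0.88 ± 0.33 for Hbb-bt and 0.98 ± 0.33 for Alas2. Day 21 minus day 7 within PBS mice was -0.73 ± 0.35, -0.84 ± 0.36, -0.76 ± 0.36, -0.57 ± 0.37 and -0.65 ± 0.39 in the same order. None of the 5 passed in edgeR in either comparison, where 1.77% of genes passed in LLC mice and 3.21% in PBS mice; at an unadjusted p under 0.05 there were 5 in LLC mice, against 18.6% of all genes, and 1 in PBS mice, against 20.4%. DESeq2 called 0 of the 5 in both, where it called 5.86% of genes in LLC and 8% in PBS mice. Without day 21 LLC library 1, the widening of the LLC minus PBS difference between the days was 1.62 (Hbb-bt) to 1.81 (Alas2), with 3 of the 5 and 167 genes in all passing, and day 21 minus day 7 in LLC mice was 0.93 (Hba-a2) to 1.17 (Alas2), with 4 of the 5 and 1036 genes in all passing. Without day 21 PBS library 4, the first was 1.30 (Hbb-bt) to 1.52 (Alas2) and day 21 minus day 7 in PBS mice was -0.68 (Hba-a2) to -0.42 (Hbb-bt), and none of the 5 passed in either, where 1222 and 1692 genes in all passed. The days overlapped for all 5 genes in both groups: 3 of 5 day 21 LLC libraries (2 of 5 for Alas2) were above every day 7 LLC library, and 3 of 4 day 21 PBS libraries were below every day 7 PBS library. Among all genes tested, the days did not overlap, with day 21 higher, for 1.69% in LLC mice, and, with day 21 lower, for 8.38% in PBS mice. Day 21 minus day 7 in PBS mice and both LLC minus PBS differences share the PBS libraries.

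While total globin varied 12.5-fold over the libraries, its make-up varied little. Counts of the alpha pair over the beta pair ran from 0.995 to 1.40. The ratio averaged 1.12 ± 0.0836 in LLC and 1.26 ± 0.0965 in PBS mice at day 21 (SD, n = 5 and 4), where the groups overlapped. At day 7 it averaged 1.19 ± 0.0428 in LLC and 1.31 ± 0.0210 in PBS mice, and the groups did not overlap (1.13 to 1.25 in LLC, 1.29 to 1.33 in PBS). Hba-a1 made up 41.7% to 45.7% of alpha counts and Hbb-bt 11.5% to 15.9% of beta counts over the 18 libraries. Alas2 counts per 1000 globin counts were 12.3 to 18.8 in day 21 LLC libraries and 11.2 to 14.6 in day 21 PBS libraries, and 11.4 to 15.1 in day 7 LLC libraries and 9.44 to 14.0 in day 7 PBS libraries, so the groups overlapped at each day. These ratios follow from the same counts as the differences above and were not tested.

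**Figure D3:**
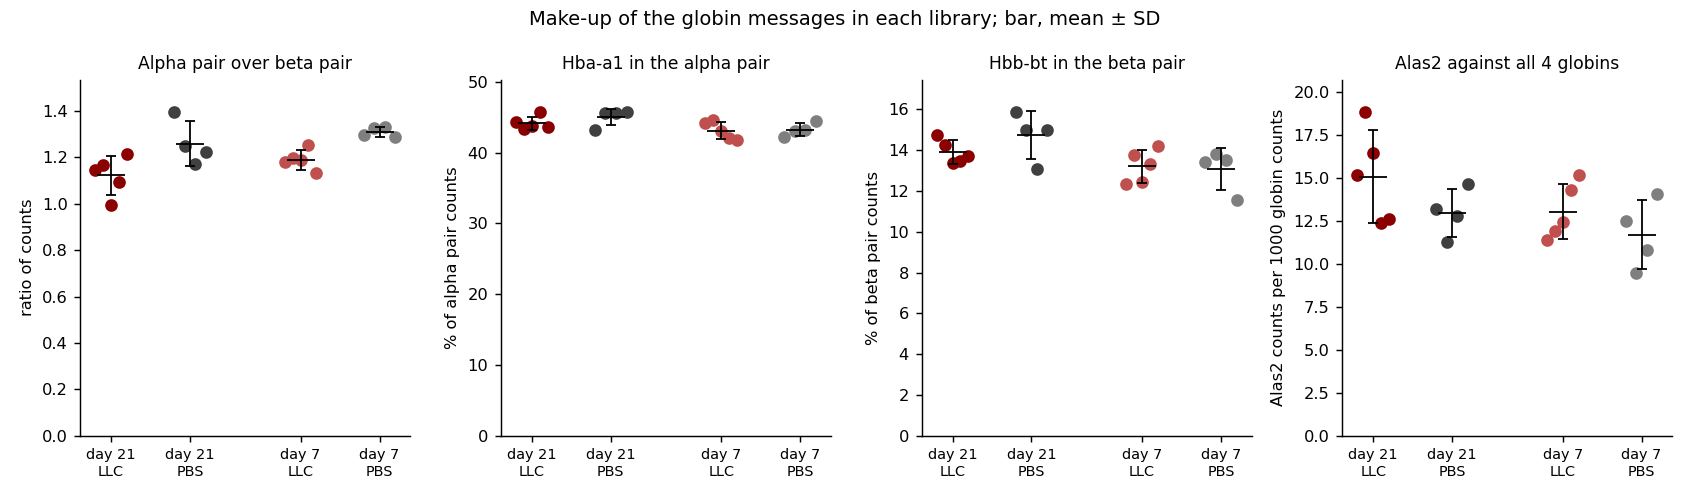
Ratio of alpha pair to beta pair counts, share of Hba-a1 in the alpha pair (%), share of Hbb-bt in the beta pair (%) and Alas2 counts per 1000 globin counts in each library (points), with the mean ± SD of each group. All axes start at 0: the shares stay within 41.7% to 45.7% and 11.5% to 15.9%, and the alpha to beta ratio of the day 7 LLC libraries (1.13 to 1.25) lies below that of the day 7 PBS libraries (1.29 to 1.33).

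Embryonic and fetal globins were at or near 0 counts. Hba-x, Hbb-y, Hbb-bh1 and Hbb-bh2 had 0 counts in all 18 libraries, which allows up to 0.158 to 0.206 CPM in a library (3 counts of its total, counting error only). Hbq1a had 9 counts and Hbq1b 17 counts over all libraries. Mb, the muscle oxygen store myoglobin, was highest at 35.1 CPM in day 21 PBS library 1, whose skeletal muscle markers summed to 5158 CPM, and its correlation with the globin sum over 18 libraries was -0.02 (Pearson r of log2 CPM + 1), and 0.44 on deviations from the 4 group means. Cygb, cytoglobin of stromal cells, differed by 0.03 ± 0.19 at day 21 and -0.17 ± 0.10 at day 7 (adjusted p = 0.939 and 0.712).

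Other genes of red cells did not all differ in the direction of the globins. The list of red cell membrane and skeleton genes had 17 members in the tables, of which 10 were tested at day 21 and 9 at day 7, and none passed in edgeR at either day. An unadjusted p under 0.05 was reached by 6 of them at day 21 and 2 at day 7, and DESeq2 called 4 and 0. For these counts and those of the other lists, the shares over all genes tested were the 23.3% and 8.51% (unadjusted) and the 11.6% and 0.752% (DESeq2) given above. The median log2 difference of this list was -0.29 at day 21, with 4 of 10 positive. The 6 negative ones included Dmtn (-1.15 ± 0.30, edgeR adjusted p = 0.0884) and Cd59a (-0.70 ± 0.29, edgeR adjusted p = 0.195). The list of red cell enzymes and late maturation had 14, of which 11 were tested at day 21 and 10 at day 7, and none passed in edgeR. An unadjusted p under 0.05 was reached by 5 at day 21 and 3 at day 7, and DESeq2 called 4 and 1. At day 21, 9 of its 11 tested genes had positive log2 differences, with a median of 0.52. The lists were drawn up with results of these data known.

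Slc4a1, the anion exchanger of the red cell membrane, was at 1.03, 8.89, 3.12, 5.64 and 3.07 CPM in day 21 LLC libraries, against 0.422, 0.567, 0.391 and 0.922 CPM in PBS libraries. At day 7 it was at 0.433, 0.806, 1.89, 1.12 and 6.12 CPM in LLC libraries, against 0.655, 0.239, 0.678 and 0.526 CPM in PBS libraries. The day 21 groups did not overlap and the day 7 groups did. The log2 difference was 2.88 ± 0.62 at day 21 and 1.95 ± 0.74 at day 7 (edgeR adjusted p = 0.0666 and 0.538). Trim10, a ubiquitin ligase of late erythroid cells, had 9, 18, 16, 19 and 14 counts in day 21 LLC libraries, against 1, 1, 2 and 1 counts in PBS libraries (3.35 ± 0.49, adjusted p = 0.0526). It was below the count filter at day 7.

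Tent5c, a poly(A) polymerase, was at 18.6, 21.2, 11.7, 14.3 and 13.2 CPM in day 21 LLC libraries and 8.31, 8.12, 2.41 and 6.21 CPM in PBS libraries (1.31 ± 0.35, adjusted p = 0.0914). Car2, a carbonic anhydrase of red cells and other cells, differed by 1.31 ± 0.36 (adjusted p = 0.0940). Bpgm, the red cell enzyme that makes bisphosphoglycerate, differed by 0.52 ± 0.22 at day 21 and 0.26 ± 0.14 at day 7 (adjusted p = 0.201 and 0.649).

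Within LLC mice 2 of 11 tested membrane genes passed in edgeR between the days, against 1.77% of all genes. Aqp1, a water channel of red cells and also of vessel walls, was 0.85 ± 0.14 higher at day 21 (adjusted p = 0.0183), at 541, 670, 854, 752 and 924 CPM against 449, 441, 445, 351 and 396 CPM at day 7, with no overlap. Gypc, glycophorin C, fell by 0.62 on the log2 scale (SE 0.14, adjusted p = 0.0415), at 43.4, 61.4, 47.7, 35.7 and 33.7 CPM at day 21, against 73.1, 55.6, 70.9, 76.9 and 63.5 CPM at day 7. Both genes are also made outside red cells. Aqp1 passed in each of 18 fits that left out 1 library, but not in limma or with the replicate number as a block. Gypc passed in 6 of the 18 and in neither of these alternatives; it was lost without any 1 of day 21 LLC libraries 3, 4 and 5, day 7 LLC libraries 1 to 4, day 21 PBS library 2 or the 4 day 7 PBS libraries. Over the lists of red cell, erythroid regulator and heme synthesis genes, 8 genes passed in this comparison without day 21 LLC library 1, in place of 2. Among all genes 1036 passed in that fit, in place of 248.

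**Figure D4:**
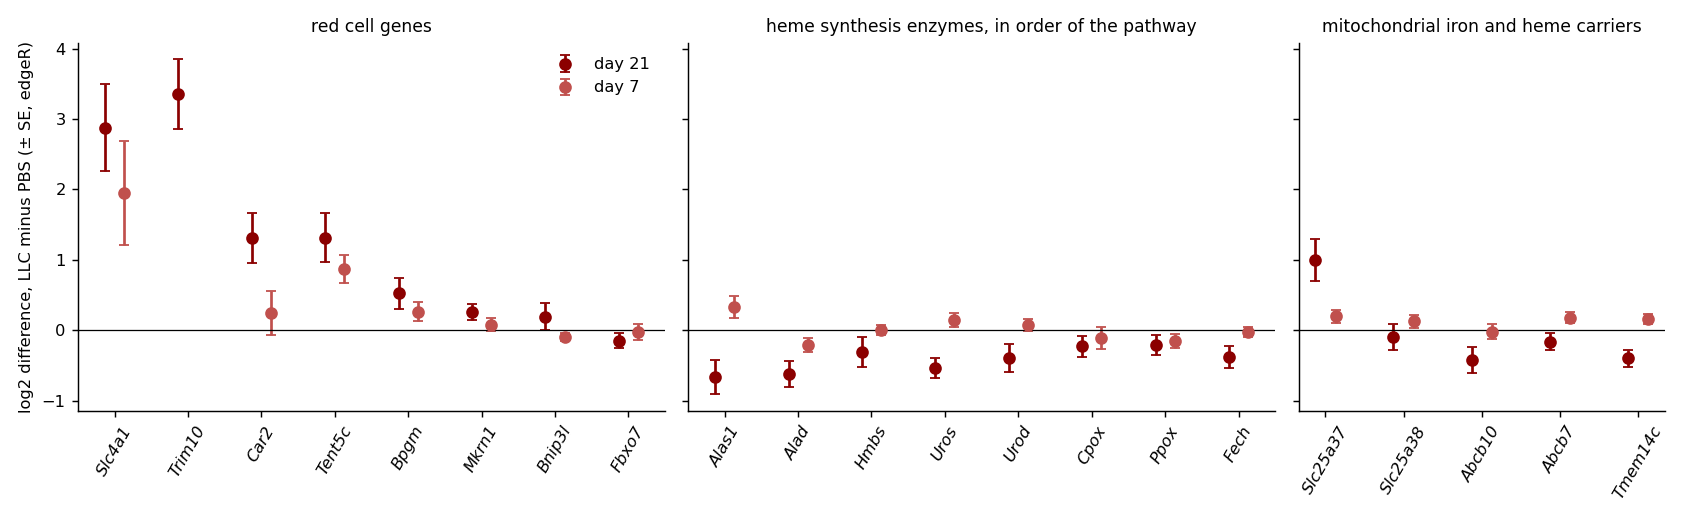
Fitted log2 differences ± SE (edgeR), LLC minus PBS, at day 21 and day 7. The left panel shows 8 genes picked from the red cell lists. The middle panel shows heme synthesis enzymes in pathway order, and the right panel mitochondrial iron and heme carriers. Slc4a1 is the only gene shown from the membrane and skeleton list, where 6 of 10 tested genes were below 0 at day 21 and 4 above. Trim10 has no day 7 point because it was below the count filter, and at day 21 all 8 enzymes lie below 0 (-0.67 to -0.21).

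Of the other genes of heme synthesis, most had log2 differences of the opposite sign to Alas2 at day 21. None of the 14 genes of the list passed in edgeR at either day, 7 had an unadjusted p under 0.05 at day 21 and 0 at day 7, and DESeq2 called 4 and 0. At day 21, 2 of the 14 had positive log2 differences, and the median was -0.35. Alas1, the form of the enzyme used outside red cells, was at 224, 252, 147, 320 and 319 CPM in day 21 LLC libraries, against 493, 432, 335 and 322 CPM in PBS libraries, with no overlap between the groups (-0.67 ± 0.24, adjusted p = 0.145). At day 7 it was 0.33 ± 0.15 higher (adjusted p = 0.611). Fech, which inserts iron to complete heme, differed by -0.39 ± 0.15 at day 21 and -0.03 ± 0.07 at day 7 (adjusted p = 0.178 and 0.944). Of the steps between, Alad differed by -0.62 ± 0.18 (adjusted p = 0.106) and Uros by -0.54 ± 0.15 (adjusted p = 0.0940) at day 21. Slc25a37, mitoferrin, which carries iron into mitochondria, differed by 0.99 ± 0.30 at day 21 (adjusted p = 0.112), at 44.6, 31.8, 80.0, 30.5 and 32.5 CPM in LLC libraries, against 17.5, 20.6, 22.3 and 26.5 CPM in PBS libraries, with LLC library 3 far above the rest.

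Of the erythroid transcription factors, Klf1 and Gata1 were scarce. Klf1, which activates adult beta globin, had 0 to 5 counts per library, and Gata1, the master regulator of red cell genes, had 0 to 6. Others of the list were not: Tal1 had 1629 counts and Lmo2 8408 over the libraries, with counts in all 18. Epor, the erythropoietin receptor, was at 6.49, 4.97, 5.21, 3.74 and 5.20 CPM in day 21 LLC libraries, against 7.35, 8.81, 8.87 and 10.4 CPM in PBS libraries, with LLC below PBS and no overlap (-0.81 ± 0.20, adjusted p = 0.0787). Tfr2, a transferrin receptor of red cell precursors and liver, differed by -2.25 ± 0.44 at day 21 (adjusted p = 0.0634). Of the 12 genes of the list, 7 were tested at day 21 and 8 at day 7, and none passed in edgeR. At day 21, 5 of the 7 had positive log2 differences, and the median was 0.46. Epor and Tfr2 were the 2 negative ones. An unadjusted p under 0.05 was reached by 3 at day 21 and 0 at day 7, and DESeq2 called 2 and 0.

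Genes that handle iron and released heme were read beside the globins. None of the 15 iron genes or the 12 heme breakdown and scavenging genes passed in edgeR at either day between LLC and PBS mice. At an unadjusted p under 0.05 there were 1 iron gene and 4 heme breakdown genes at day 21, and 2 and 3 at day 7, while DESeq2 called 1 and 2 at day 21 and 0 of both at day 7. Hmox1, heme oxygenase, was at 424, 133, 55.3, 65.6 and 37.5 CPM in day 21 LLC libraries, against 22.2, 26.7, 28.9 and 92.3 CPM in PBS libraries; library 1 of the LLC group and library 4 of the PBS group, both rich in macrophage markers, were highest (1.73 ± 0.78, adjusted p = 0.217). Without LLC library 1 its log2 difference was 0.79 ± 0.55 (edgeR adjusted p = 0.415), and without PBS library 4 it was 2.44 ± 0.82 (adjusted p = 0.0906). Cd163, the macrophage receptor for hemoglobin bound to haptoglobin, was at 149, 131, 92.6, 131 and 104 CPM in day 21 LLC libraries, against 24.2, 24.5, 19.04 and 97.6 CPM in PBS libraries (1.53 ± 0.47, adjusted p = 0.113). Without PBS library 4 Cd163 passed the edgeR test (2.41 ± 0.20, adjusted p = 0.000675), and without LLC library 1 it did not (1.48 ± 0.52, adjusted p = 0.159). Within PBS mice, day 21 against day 7, Cd163 fell by 1.87 on the log2 scale (adjusted p = 0.0263) and Lrp1, a receptor for heme bound to hemopexin, fell by 0.71 (adjusted p = 0.0424). All 10 macrophage markers had negative log2 differences in this comparison, Cd163 alone passing, with Mrc1 at -1.59 and Csf1r at -1.51 (adjusted p = 0.156 and 0.0877). Their summed level had a median of 414 CPM in day 21 PBS libraries (256 to 2574) and 1865 CPM in day 7 PBS libraries (1691 to 2821), and the part of macrophage content in these falls was not tested. Hpx, hemopexin itself, rose by 5.18 ± 1.09 (adjusted p = 0.0225), at 0.181, 10.2, 1.76 and 11.2 CPM at day 21 and 0.262, 0.0598, 0.185 and 0.117 CPM at day 7, with library 1 of day 21 inside the day 7 range. These calls depended on single libraries: of 18 fits that left out 1 library each, Cd163 passed in 13 (not without day 21 PBS library 1, 2 or 3 or day 7 PBS library 2 or 4), Hpx in 13 (not without day 21 PBS library 2 or any 1 day 7 PBS library) and Lrp1 in 8 (not without day 21 PBS libraries 1 to 3, day 7 PBS libraries 1 to 4 or day 7 LLC libraries 1, 2 and 4, each left out alone).

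Levels of neutrophil, platelet and endothelial markers were read beside the globins, and no gene of these 3 lists passed in edgeR between LLC and PBS mice at either day. At an unadjusted p under 0.05 there were 3 of 5 tested neutrophil, 2 of 4 platelet and 6 of 12 endothelial genes at day 21, and 4 of 4, 2 of 4 and 3 of 12 at day 7. DESeq2 called 3, 0 and 6 at day 21, and 0, 1 and 0 at day 7. Of the 4 neutrophil genes tested at day 7, 3 had positive log2 differences and 1, Elane, a negative one (-0.85 ± 0.36). Neutrophil markers, 12 genes of which 5 were tested at day 21, summed to 11.6 to 63.8 CPM in day 21 LLC libraries, against 2.02 to 9.71 CPM in PBS libraries, and to 6.18 to 43.6 CPM in day 7 LLC libraries, against 4.19 to 8.48 CPM in PBS libraries. Of these, Ly6g, Mpo, Camp and Ngp were at 0 in 12 or more of the 18 libraries. Platelet and megakaryocyte markers summed to 23.1 to 84.2 CPM in day 21 LLC libraries, against 8.28 to 31.0 CPM in PBS libraries, and to 31.8 to 72.3 CPM in day 7 LLC libraries, against 26.6 to 38.8 CPM in PBS libraries. Endothelial markers summed to 1304 to 1895 CPM in day 21 LLC libraries, against 944 to 1304 CPM in PBS libraries, and to 1313 to 1647 CPM in day 7 LLC libraries, against 1247 to 1507 CPM in PBS libraries. The groups did not overlap for the neutrophil sum at day 21 and overlapped for the others, at day 21 for the endothelial sum by less than 1 CPM. The part of these cell types in the globin differences was not tested.

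Over the 18 libraries and 13964 genes, the 10 genes outside the 5 whose log2(CPM + 1) varied most like the globin sum included Trim10 (Pearson r = 0.93), Ece1 (0.87), Cldn3 (0.86), Rassf9 (0.86), Cytl1 (0.85), S100a9 (0.85), Eva1a (0.85), Selp (0.84) and Slc4a1 (0.83). Alas2, which is not in the sum, was at 0.979, and the globins that make up the sum were at 0.994 (Hbb-bt) to 0.999 (Hba-a1). The libraries share the LLC and PBS grouping, so r was also taken on deviations from the 4 group means. There Trim10 was at 0.77 (rank 205 among genes outside the 5), Slc4a1 at 0.71 (rank 496) and Selp at 0.16 (rank 5158). The red cell enzyme gene Bpgm was at 0.87 (rank 11), and the fat cell marker Adipoq was at 0.79 (rank 138), above Trim10 and Slc4a1. On these deviations the highest were Tppp (0.91), Akap1 (0.90), Edf1 (0.90), Crat (0.90) and Usf2 (0.90), while Alas2 was at 0.92. Of the 10, Selp, an adhesion molecule of platelets and vessel walls, was called higher in LLC at day 21 (2.85 ± 0.41, adjusted p = 0.0489), with groups that did not overlap at either day. It passed in 3 of 9 day 21 fits that left out 1 library, and not without LLC library 3, 4 or 5 or PBS library 1, 2 or 3.

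**Figure D5:**
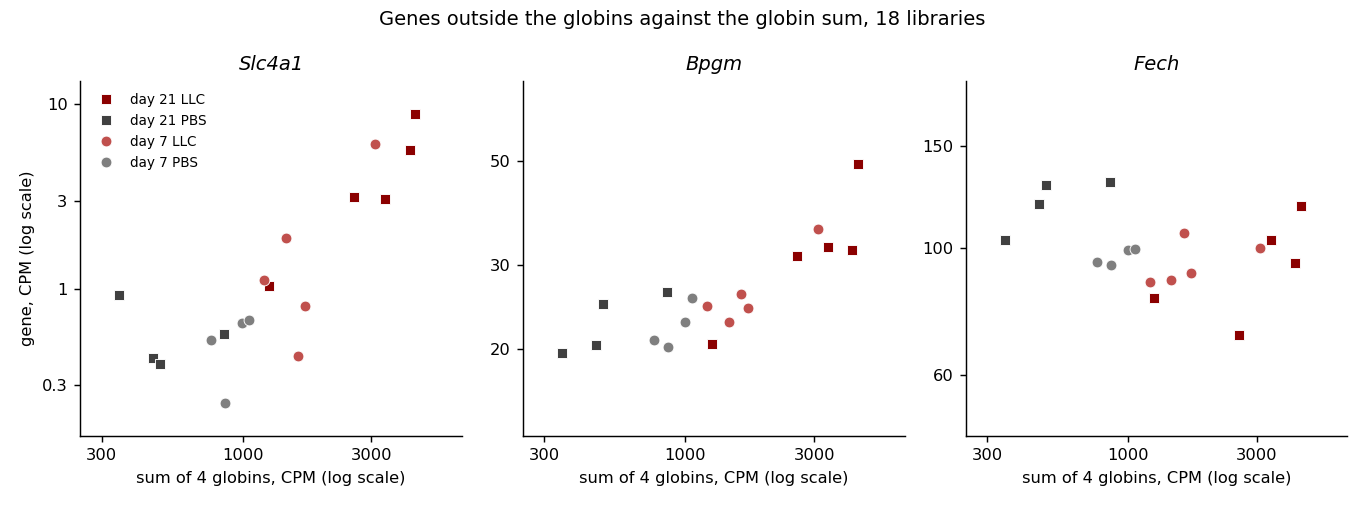
CPM of Slc4a1, Bpgm and Fech against the sum of the 4 globins in each of the 18 libraries, both axes on a log scale, by group. Slc4a1 and Bpgm are higher where the globin sum is higher (r = 0.83 for both over the libraries), with Bpgm over a narrower range, and Fech is not (-0.30 over the libraries, but 0.64 on deviations from the 4 group means).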

How the data were processed

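RNA of inguinal fat was measured in 18 libraries prepared from poly(A) RNA, per the labels' protocols; fastp 0.23.0, RSEM and the build mm10 or GRCm38 are named by the submitters' processing notes. The deposited expected counts are RSEM estimates, all whole numbers as deposited, and the authors also deposited TPM; the aligner is not given in the sources used here. Counts entered edgeR 4.0.16 (TMM scaling, filterByExpr, quasi-likelihood test, two-sided, Benjamini-Hochberg threshold 0.05) in R 4.3.3, with 9 libraries per day for LLC minus PBS and all 18 for the other comparisons; log2 differences, their SE and p-values were computed from the deposited counts. SE is the absolute log2 difference over the square root of F. For pair sums the 4 globin rows were replaced by 2. DESeq2 1.42.0 and limma 3.58.1 (log2 of TPM plus 1 or 0.1) were alternatives. Nothing says whether libraries came from separate mice, and the p-values speak only to variation among the libraries at hand, which may be technical; replicate pairs differed beyond sampling noise (lowest chi-square per gene 13.3 over 32 pairs). In counts simulated at the mean levels and depths of these libraries, 200 genes were changed, split evenly between 2-fold and 4-fold. The 4-fold changes were recovered in 100% at both days, and the 2-fold changes in 83% (day 7) and 90% (day 21). Every simulated gene had the same spread between libraries (dispersion 0.05), so these rates do not carry over to the measured genes. At day 21 Hba-a1, at 5.34-fold, did not pass. The members, lists and named genes (called genes, those with smallest p in a list, and those most like the globin sum) were chosen with earlier results of these data known. One gene of the red cell enzyme list was not analysed here, and some others that entered the counts over lists are not reported by name.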

Additional observations from a re-analysis of the deposited data

Results flagged for a closer look

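Day 7 LLC library 5 was far above the other 4 libraries of its group for Hba-a2 (957 CPM, others 388 to 514), Hbb-bs (1243, others 463 to 669), Hbb-bt (205, others 71.1 to 107), Alas2 (46.8, others 17.2 to 20.2), the alpha pair (1642, others 669 to 928) and the beta pair (1449, others 534 to 776). The same library stood apart for Slc4a1 (6.12 CPM), Trim10 (0.984, 14 counts) and Bpgm (35.9). Its neutrophil markers summed to 43.6 CPM, the highest of its group. Of 72 groups of values examined for a sample far from the rest, 15 had one, where about 5% of independent groups would by chance. These groups were not independent, since the globins varied together and the pair sums hold their counts. Most of the 15 were this 1 library, so the 15 cannot be set against that share.

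Single libraries also stood apart for Slc25a37 in day 21 LLC library 3 (80.0 CPM), Hmox1 in day 21 LLC library 1 (424), day 21 PBS library 4 (92.3) and day 7 PBS library 4 (78.1) and Cd163 in day 21 PBS library 4 (97.6). Trim10 met the same criterion in day 21 PBS library 3 (0.130 CPM), on 2 counts against 1 count in each of the others, a gap too small to order these libraries.

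The LLC minus PBS difference was larger at day 21 than at day 7, by the edgeR interaction test, for Vwf by 2.10 log2 units (adjusted p = 0.0415), Tek by 0.99 (adjusted p = 0.0415) and Cytl1 by 2.93 (adjusted p = 0.0428). Each passed in 4 of 18 fits that left out 1 library, those without day 21 LLC library 1, 2 or 5 or day 21 PBS library 4, and in none of the others. In PBS mice, day 21 minus day 7 was -0.97 ± 0.15 for Tek and -1.24 ± 0.32 for Vwf (edgeR adjusted p = 0.0036 and 0.0457). In LLC mice it was 0.03 ± 0.13 for Tek and 0.86 ± 0.28 for Vwf (edgeR adjusted p = 0.946 and 0.120). Cytl1 averaged 1.38 CPM at day 21 and 5.31 CPM at day 7 in PBS libraries, and 13.5 and 6.77 CPM in LLC libraries.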

How the results depend on the processing

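All 672 log2 differences of the 5 genes and pair sums under the alternatives run kept their direction and moved by less than 1 SD between replicates, while the counts of genes called did not hold. Members called at day 21 (1 as reported) were 5 with DESeq2 (1552 genes in all), limma on log2(TPM + 1) (61), limma on log2(TPM + 0.1) (78) and 1 fit of 18 libraries (2660), and 0 with DESeq2 size factors in edgeR (9), a filter at 1 CPM (9) and the replicate block (2). Genes of the 4 red cell lists called at day 21 (0 as reported) were 14 with DESeq2, 3 with limma on log2(TPM + 0.1) and 20 in 1 fit of 18 libraries. Of the 14, Dmtn, Epor, Tfr2, Alad, Uros and Tmem14c had negative log2 differences in the edgeR fit of that day, and the rest positive ones. These negative genes were also among the 20, as were Gypc, Alas1 and Fech, which were negative too. At day 7 DESeq2 called 5 members and 1 list gene, Tent5c (93 in all). For the tumour effect at day 21 minus day 7, DESeq2 called 4 members and 5 list genes (727 in all), and the replicate block called 1 list gene, Tfr2 (75 in all). The edgeR log2 values of these 5 list genes were negative, opposite to the members: -0.78 (Epor), -2.16 (Tfr2), -0.97 (Alas1), -0.65 (Uros) and -0.53 (Tmem14c). In PBS mice between days DESeq2 called 3 list genes and limma 1 member at either pseudocount. In LLC mice between days (2 list genes as reported) DESeq2 called 5, limma 0 at either pseudocount and the replicate block 0. Without 1 library each, day 21 gave 0 to 5 members and 0 to 8 list genes, the tumour effect gave 0 to 3 and 0 to 5, PBS mice 0 to 5 list genes, and LLC mice 0 to 4 members and 1 to 8 list genes. At day 21 there were 5 members without PBS library 4 or LLC library 1, 3 without LLC library 2 and 0 without any 1 of the other 6; the cause was not tested. Library numbers were not taken to pair the samples: correlations of same-numbered deviations were 0.09 to 0.49 at day 7, where numbers 1, 3 and 4 matched best with themselves and number 2 did not, and -0.27 to 0.24 at day 21, where none did. Under the replicate block the alpha pair difference was 2.35 at day 21 and 0.64 at day 7. On deposited TPM the alpha to beta ratio at day 7 was 1.25 in LLC and 1.37 in PBS mice. The lowest globin depth was 5673 counts in a library; Trim10, Klf1 and Gata1 had too few counts to order single libraries.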
